A study of Mus musculus with 5 samples.

Results

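The Iroquois genes Irx1, Irx2, Irx3, Irx4, Irx5 and Irx6 were described in maps of KAP1 and Ring1b binding in mouse embryonic stem cells. They were taken by symbol and RefSeq accession, and are 6 of the 21031 protein-coding genes with a RefSeq mRNA and a position. They lie in 2 clusters of 3 genes. Irx1, Irx2 and Irx4 span 1311 kb of chromosome 13, and Irx3, Irx5 and Irx6 span 882 kb of chromosome 8 (build GRCm38). All 6 carried a Ring1b peak at their start, and 5 of them also had a KAP1 peak in the promoter region that the authors' deposited tables assign to them. Over all protein-coding genes, 28.7% had Ring1b and 58.6% had KAP1 in those promoter tables.

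Iroquois proteins are transcription factors of the TALE class, whose homeodomain carries an extra loop between its first helices. They pattern the neural tube, heart, limb, kidney and retina of the embryo, and their genes stand in widely spaced clusters with long stretches free of other protein-coding genes. Ring1b, encoded by Rnf2, is an E3 ligase of the Polycomb repressive complex PRC1, which in embryonic stem cells covers many silent developmental genes in broad domains. KAP1, encoded by Trim28, is a corepressor best known for being brought to DNA by KRAB zinc finger proteins.

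Chromatin immunoprecipitation with sequencing was done on 5 libraries, 1 per group, from cells grown on irradiated mouse embryonic fibroblasts. For KAP1, the cells were KAP1 fl/fl, treated with ethanol (the vehicle) or with 4-hydroxytamoxifen. For Ring1b, they were Ring1b fl/fl under the same treatments and, in the last library, KAP1 fl/fl treated with 4-hydroxytamoxifen. Treatment lasted 24 h and was followed by 48 h of culture, with tamoxifen kept on for the Ring1b fl/fl cells and absent for the KAP1 fl/fl cells. The fl/fl alleles are conditional, and the Cre that acts on them, the number of clones and the read depth are unknown here. The 3 peak lists give no expression level, so neither the deletions nor the cell type could be checked from them.

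Each list was called by the authors on 1 library against another. The KAP1 list (82775 peaks) and the Ring1b list (13516 peaks) set vehicle cells against tamoxifen cells of the same line. The third list (8928 peaks), called the knockout list here, set the Ring1b library of KAP1 fl/fl cells on tamoxifen against that of Ring1b fl/fl cells on tamoxifen, which are another line. The peak score is the authors' own, 10 times the −log10 p of a peak against its control, and it ranks peaks within 1 list only. In the Ring1b list 732 peaks are tied at 3100, and 5.80% of peaks score 3100 or above. Differences among scores of 3100 and above were not read as an order of strength. With 1 library per group there was no replicate error and nothing was tested. Intervals on shares are exact 95% binomial (Clopper-Pearson) and cover counting over peaks only. KAP1 and Ring1b in vehicle cells were mapped in different lines, so an overlap of their peaks is of 2 cultures.

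Promoter sequences from RefSeq (GRCm38.p6) were matched for 3 of the 6 genes. They are shown because peaks of both proteins lie on them, and because the 3 differ in their content of CG dinucleotides, which are printed in capitals. Each runs from 250 bases before to 50 bases after a RefSeq start, 5′ to 3′ on the gene's strand. The Irx2 sequence is chr13:72628570-72628869 (plus strand), set on a start upstream of the one in the deposited promoter, Irx4 is chr13:73260247-73260546 (plus strand) and Irx3 is chr8:91801605-91801904 (minus strand).
Irx2: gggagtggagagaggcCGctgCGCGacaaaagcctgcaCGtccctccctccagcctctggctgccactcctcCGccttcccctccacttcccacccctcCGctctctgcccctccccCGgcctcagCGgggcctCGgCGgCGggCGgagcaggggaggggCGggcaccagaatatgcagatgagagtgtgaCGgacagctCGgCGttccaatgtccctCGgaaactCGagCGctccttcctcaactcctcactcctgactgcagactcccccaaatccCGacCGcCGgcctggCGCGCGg
Irx4: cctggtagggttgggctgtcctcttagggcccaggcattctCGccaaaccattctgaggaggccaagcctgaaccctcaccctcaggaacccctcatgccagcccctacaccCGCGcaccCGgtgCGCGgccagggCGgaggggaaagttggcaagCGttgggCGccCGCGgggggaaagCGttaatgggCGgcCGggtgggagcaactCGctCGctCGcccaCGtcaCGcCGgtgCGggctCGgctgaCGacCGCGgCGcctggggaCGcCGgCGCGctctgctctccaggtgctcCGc
Irx3: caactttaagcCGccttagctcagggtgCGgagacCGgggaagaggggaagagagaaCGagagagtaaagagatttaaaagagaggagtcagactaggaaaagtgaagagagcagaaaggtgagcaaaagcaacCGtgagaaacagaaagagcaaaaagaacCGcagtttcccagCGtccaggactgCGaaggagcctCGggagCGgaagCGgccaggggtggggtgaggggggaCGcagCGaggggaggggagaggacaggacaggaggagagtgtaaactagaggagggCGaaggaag
All 300 bases of each sequence lay inside a Ring1b peak. A KAP1 peak covered 300 bases at Irx2 and 183 at Irx4, and a pair of KAP1 peaks covered 295 at Irx3. The Irx4 sequence holds 31 CG dinucleotides and the Irx2 sequence 25, while Irx3 holds 14, which is also the median over 20488 promoters of protein-coding genes. The median was 21.0 over the 6096 promoters of genes with Ring1b in the deposited promoter tables. Of all 32851 reference promoters, 10.6% hold at least as many as Irx4, 18.4% at least as many as Irx2 and 36.3% at least as many as Irx3. By this count Irx4 and Irx2 lie above the median of genes with Ring1b, and Irx3 below it. The motif GGGCGG, searched on both strands and itself holding a CG, occurs 2 times at Irx2, 2 times at Irx4 and not at Irx3, and in 35.7% of all promoters of this length. CCAAT occurs 1 time at Irx2 only (37.4% of all promoters). TATAAA (13.6%) and ACANNTGT (7.38%) occur in none of the 3.

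On chromosome 13, Irx1, expressed in the developing lung and kidney, lay wholly under 1 Ring1b peak. That peak ran for 8123 bp (71956539 to 71964661) with a score of 3100, and ranked 76 in width in the Ring1b list. It covered 100% of the 5492 bp gene (71958232 to 71963723, minus strand). Of the 6 genes Irx1 had its nearest KAP1 peak farthest from the start: its single KAP1 peak (score 131) lay inside the gene, 3818 bp from the start, and covered 14.4% of it.

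Irx2, which takes part in cerebellar patterning, had the most Ring1b-bound sequence of the 6 genes. Its 5 Ring1b peaks that reach within 5 kb of the gene (72624430 to 72634196, plus strand) added up to 14051 bp in whole width. The peak over the start was 6282 bp wide with a score of 3100. The neighbouring peak, 3031 bp wide over Irx2 and the divergent noncoding gene Gm20554, scored 3134. Both scores lie at or above the list's tie at 3100, so their order was not read as strength. The start peak held 4 KAP1 peaks, and its summit stood 9 bp from that of the strongest, which scored 179. The 3134 peak held none, and the nearest KAP1 peak was 776 bp away. Downstream of the gene the pattern was mixed, with Ring1b peaks scoring 86.4 (no KAP1), 674 (KAP1 at 59.9) and 1928 (KAP1 at 159).

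Irx4, a regulator of ventricular heart muscle identity, had 1 broad and a pair of narrow Ring1b peaks. The broad one covered the start and body over 6585 bp with a score of 3100 and held 4 KAP1 peaks scoring 121, 80.1, 62.5 and 69.8. A Ring1b peak of 786 bp near the 3′ end scored 359, over a KAP1 peak of 131, and one of 1202 bp past the gene scored 410, over a KAP1 peak of 58.5 whose summit was 5 bp away. Every Ring1b peak at Irx4 therefore held KAP1. Ring1b covered 71.8% of the gene (73259589 to 73269622, plus strand) and KAP1 22.9%.

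On chromosome 8, Irx3, a factor that sets progenitor domains in the neural tube, carried the widest Ring1b peak of both clusters. It was 9694 bp wide (91797591 to 91807284), ranked 39 in width, scored 3100 and covered 100% of the gene (91798511 to 91801654, minus strand) and of the sequence before it. It also held the most KAP1 peaks of any Ring1b peak here, 6, none of them strong: the highest scored 112, and the KAP1 list had a median of 96.2. Its summit stood 2809 bp from the start of the gene, on the upstream side, 126 bp from a KAP1 summit.

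Irx5, which shapes cardiac repolarisation and retinal bipolar cells, had 4 Ring1b peaks in and around it, adding up to 10518 bp. The main one was 5647 bp wide (92355566 to 92361212), scored 3100 and ran from the divergent noncoding gene Crnde into Irx5 (92357796 to 92361456, plus strand). The next one, scoring 1901, began at 92361356 in the 3′ end of the gene and ran on past it, and both together covered 96.1% of Irx5. A peak scoring 254 followed past the gene, and before it one scoring 71.6 lay in Crnde. No KAP1 peak touched the gene body: the 2 KAP1 peaks of the main Ring1b peak (scores 170 and 66.7) lay on and beside the Crnde start, and the nearer ended 1050 bp before the Irx5 start. Irx5 thus paired a broad Ring1b domain with no KAP1 within 1 kb of its own start.

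Irx6, also known from retinal bipolar cells, had the smallest Ring1b domain of the family. Its main peak was 2057 bp wide (92673339 to 92675395) and scored 1674, with the summit 38 bp from the start, and 2 peaks inside the gene scored 81.0 and 113. Together they added up to 2998 bp and covered 30.7% of the gene (92674289 to 92680956, plus strand). Its KAP1 peak (score 126) overlapped the main Ring1b peak but ended 205 bp before the start.

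**Figure D1:**
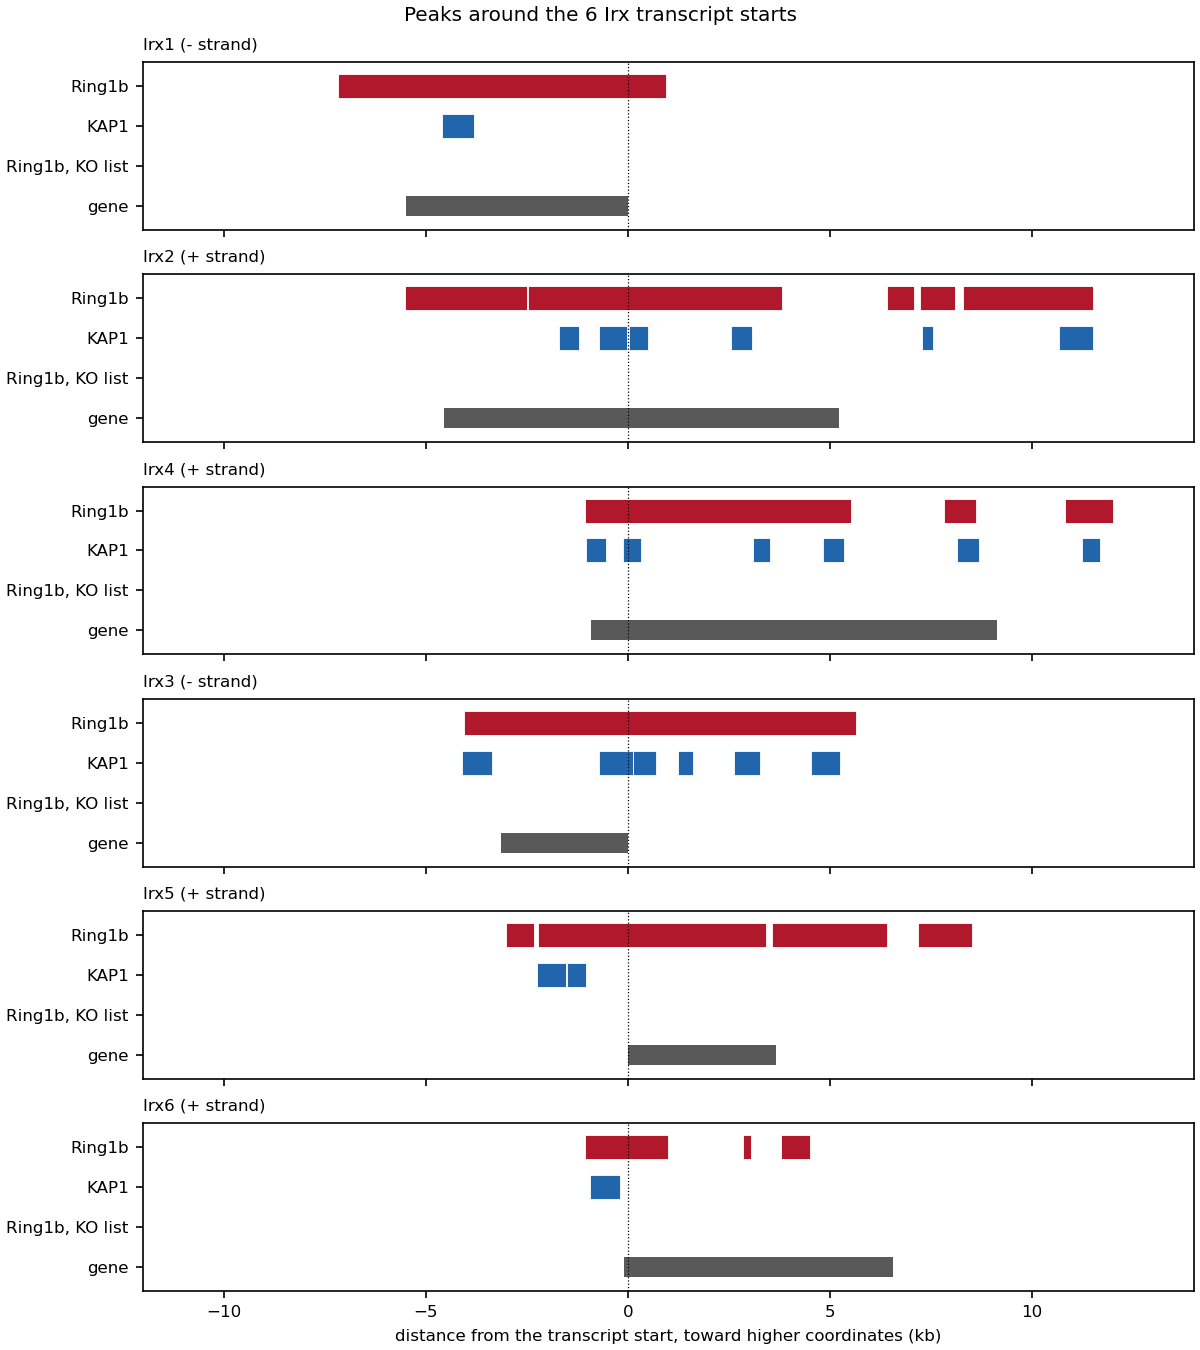
Peaks around each Irx gene, as distance from the gene's start in kb toward higher coordinates, so that Irx1 and Irx3 run leftward. Coloured boxes are peaks of each list and the grey bar is the gene. Ring1b boxes cover Irx1 and Irx3 whole and only 30.7% of Irx6, and no knockout-list peak appears within 5 kb of any of the 6 genes.

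The order of the 6 genes by the whole width of Ring1b peaks that reach within 5 kb was Irx2 (14051 bp), Irx5 (10518 bp), Irx3 (9694 bp), Irx4 (8573 bp), Irx1 (8123 bp) and Irx6 (2998 bp). By the same measure of KAP1 peaks it was Irx3 (3868 bp), Irx4 (2892 bp), Irx2 (2467 bp), Irx5 (1181 bp), Irx1 (789 bp) and Irx6 (750 bp). Cut off at 5 kb, Ring1b came to 12768 bp at Irx2 and 9064 bp at Irx3, and KAP1 to 3634 bp at Irx3. Both orders stayed the same. Irx6 is last in both orders, and Irx5 stands higher for Ring1b than for KAP1. There is no replicate spread to set these lengths against. Of all protein-coding genes, 39.3% had a Ring1b peak and 75.5% a KAP1 peak in the gene or within 5 kb, and all 6 Irx genes had both.

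**Figure D2:**
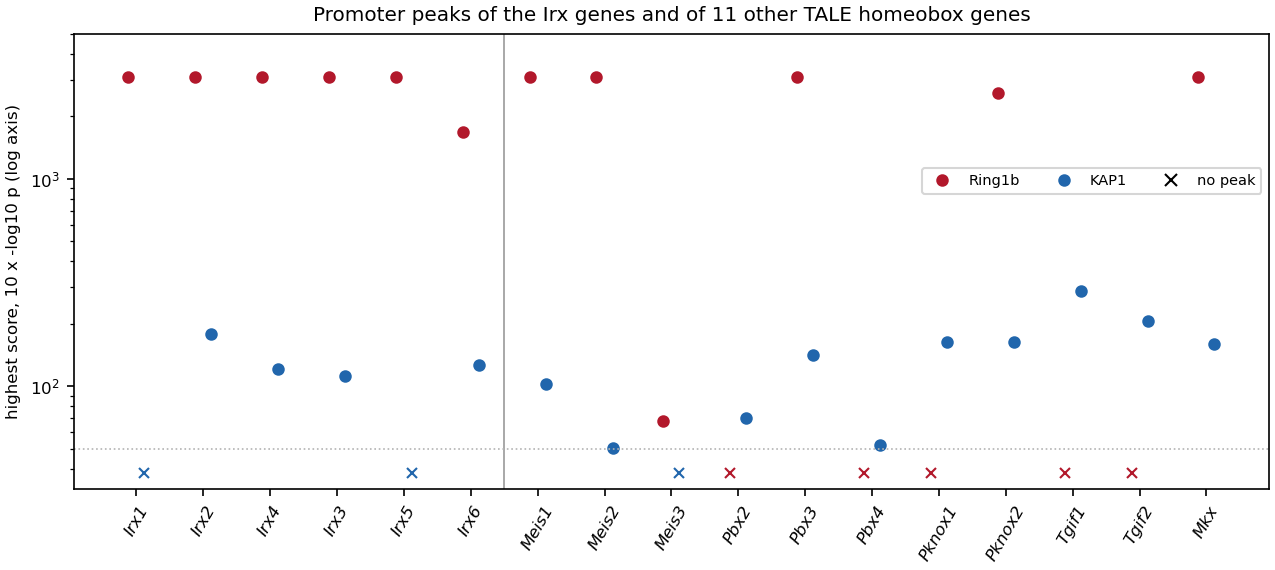
Highest Ring1b score and highest KAP1 score (log axis) for each Irx gene, from peaks within 1 kb of the start, and for 11 other TALE genes, from the deposited promoters. Crosses under the dotted line at 50, the lowest score in a list, mark no peak. This holds for KAP1 at Irx1, Irx5 and Meis3, and for Ring1b at Pbx2, Pbx4, Pknox1, Tgif1 and Tgif2. By the rule used for the 11 TALE genes, Irx5 would have KAP1, since its joint deposited promoter holds a KAP1 region scoring 121. Irx1 to Irx5 are tied at a Ring1b score of 3100, and Irx6 is at 1674.

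In the authors' deposited promoter tables, Irx2, Irx3, Irx4, Irx5 and Irx6 were in the class with both proteins, Irx1 in the class with Ring1b only and 0 in the class with KAP1 only. Over all protein-coding genes, 24.8% were in the class with both, 4.04% in that with Ring1b only and 34.3% in that with KAP1 only. For Irx2 and Irx5 the class depends on a joint region. In the authors' deposited tables, the Irx2 promoter is merged with that of Gm20554 into 1 region of 2413 bp, and the Irx5 promoter with that of Crnde into 1 of 3675 bp. The KAP1 summit of the first stood 34 bp from the Gm20554 start and 380 bp from the Irx2 start. In the second it stood 5 bp from the Crnde start and 1681 bp from the Irx5 start. Counting only peaks within 1 kb of a gene's own start, 4 members had both proteins and 2, Irx1 and Irx5, had Ring1b only.

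In the authors' deposited whole-gene tables, Irx1, Irx3, Irx4 and Irx6 were in the class with both proteins and Irx5 in that with Ring1b only. Over all genes these classes held 30.7% and 2.06%, the tables together held 63.4%, and 32.7% had Ring1b and 61.4% KAP1. Irx2 matched no whole-gene row by accession, but the region of Gm20554 in the authors' deposited table reaches across it and is in the class with both. Irx1 and Irx5 thus trade places between the promoter and the whole-gene tables: KAP1 lies inside Irx1 away from its start, and at the joint promoter of Irx5 but not inside it.

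Across both clusters with 100 kb on each side, 24 Ring1b peaks were listed, and they were concentrated on the genes. In the chromosome 13 window (1.51 Mb) 10 peaks covered 2.05% of the sequence, and in the chromosome 8 window (1.08 Mb) 14 peaks covered 2.47%, against 0.523% of the genome. Peaks per Mb were 6.62 and 12.9, against 4.99 over the genome. Within 10 kb of an Irx gene lay 17 of the 24, and their medians were 1674 for the score and 2057 bp for the width. The other 7 were weaker and narrower, with medians of 66.6 for the score and 322 bp for the width. Over the whole list these medians were 116 and 587 bp. Wide peaks were common here: 5 of the 24 were 5 kb or wider, 1 at each of Irx1 to Irx5, against 1.83% of all Ring1b peaks.

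**Figure D3:**
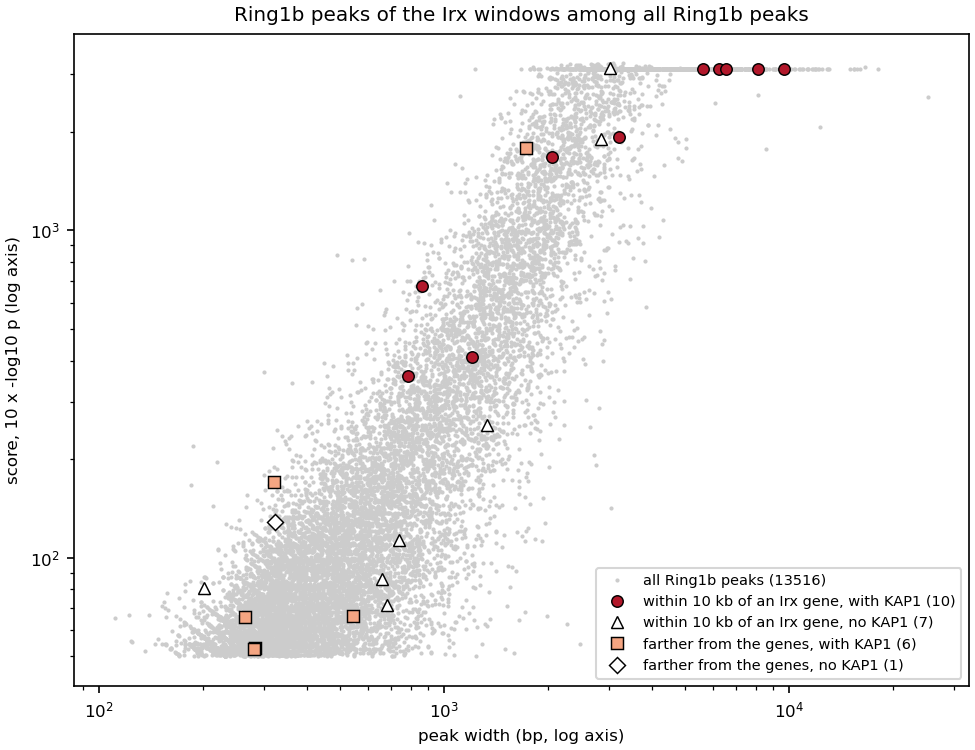
Width (bp, log axis) against score (log axis) of every Ring1b peak, with the 24 peaks of the Irx windows marked by distance from the genes and by KAP1 overlap. The 5 widest window peaks lie between 5647 and 9694 bp at the tied score of 3100, and 6 of the 7 peaks farther than 10 kb from a gene score 171 or below.

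KAP1 peaks were spread differently. The windows held 31 on chromosome 13 and 41 on chromosome 8, or 20.5 and 37.9 per Mb, against 30.6 over the genome. They covered 1.08% and 1.97% of the sequence, against 1.84% of the genome. Unlike Ring1b, KAP1 thus covered less sequence than over the genome in the first window and about as much in the second. Median scores were 75.5 and 89.5, both under the list's 96.2. All 22 KAP1 peaks within 10 kb of an Irx gene overlapped a Ring1b peak, and 6 of the 50 farther away did. Together 28 of 72 overlapped (38.9%, interval 27.6 to 51.1), against 13.7% of all KAP1 peaks. The interval counts KAP1 peaks as separate, though single Ring1b peaks held 6 of them at Irx3 and 4 each at Irx2 and Irx4, so it is too narrow. The share of sequence under Ring1b, given above, was also higher here than over the genome, and its part in this overlap was not tested.

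Read from the Ring1b side, the overlap was not above that of the whole list. Of the 24 Ring1b peaks 16 overlapped KAP1 (66.7%, interval 44.7 to 84.4), against 76.6% of all Ring1b peaks. On chromosome 13 it was 8 of 10 (80.0%, 44.4 to 97.5) and on chromosome 8 it was 8 of 14 (57.1%, 28.9 to 82.3), intervals that overlap each other and hold 76.6%. The 5 peaks of 5 kb or wider all held KAP1, as did 213 of 247 such peaks of the list (86.2%). Ring1b peaks without KAP1 included the one that scored 3134 at Irx2 and the one that scored 1901 at the 3′ end of Irx5.

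**Figure D4:**
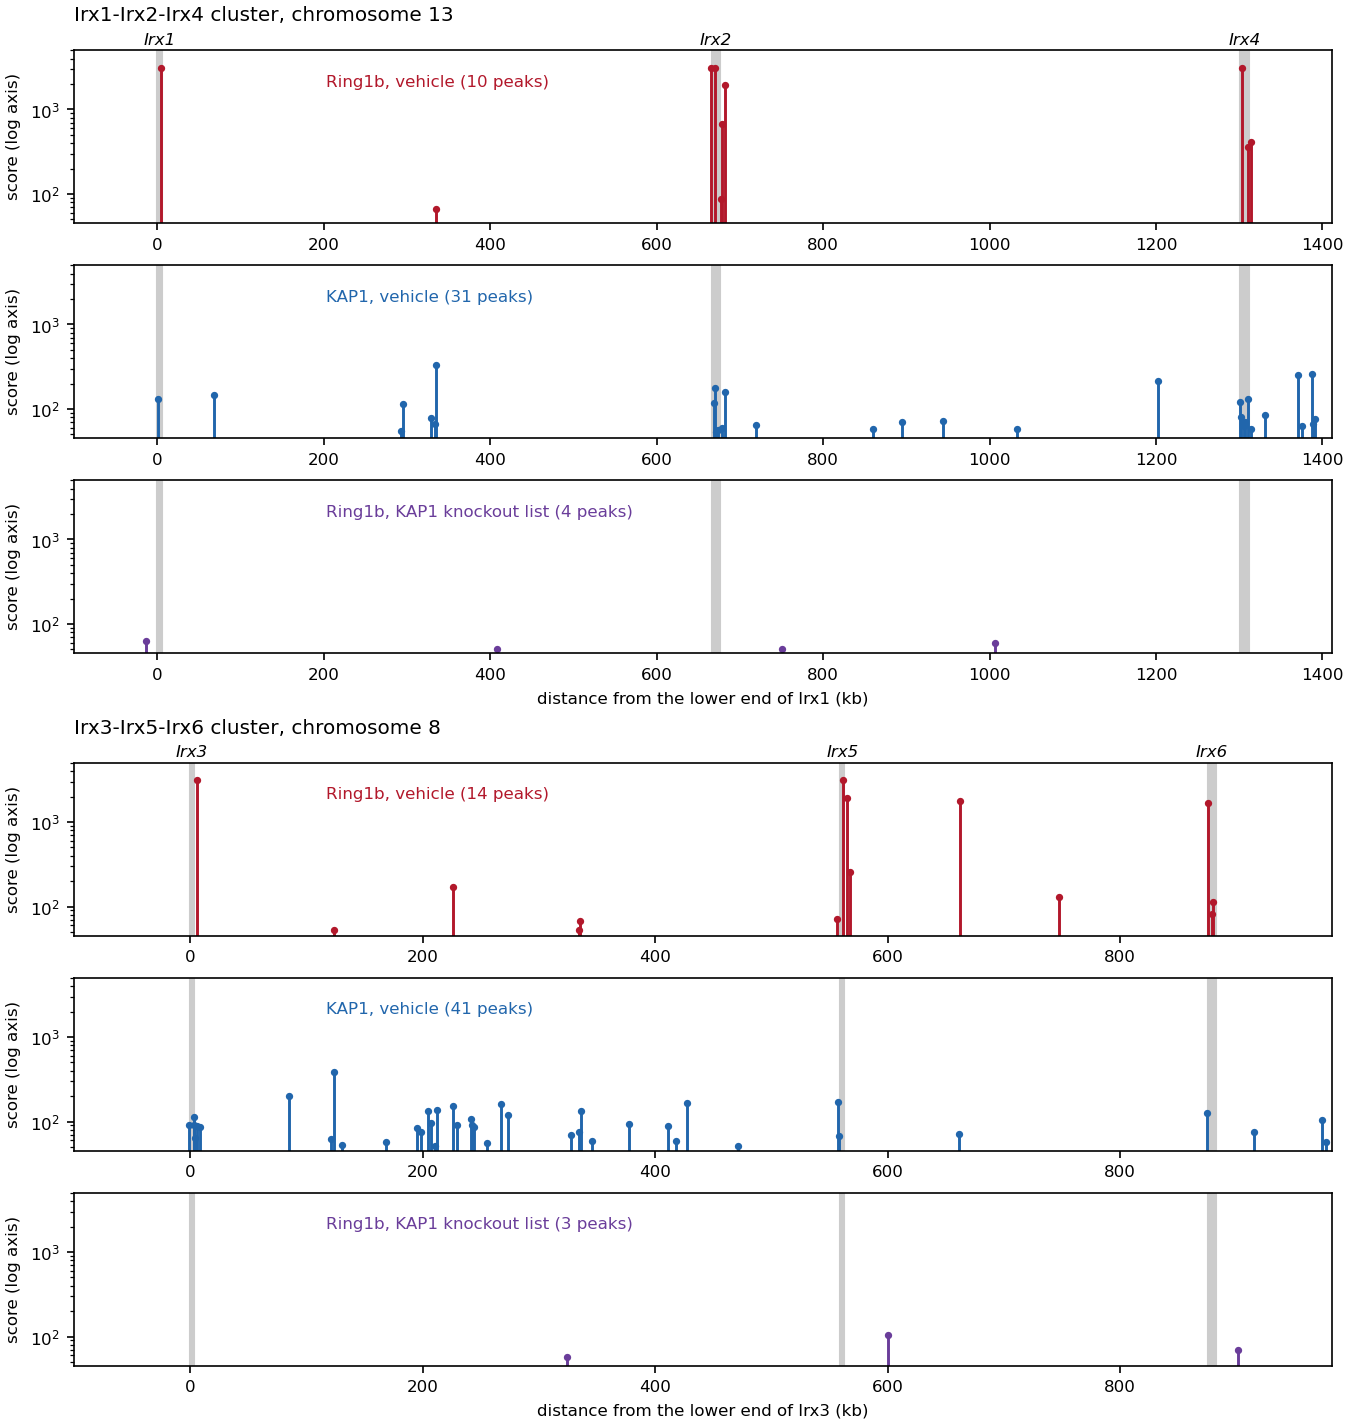
Peak scores (log axis) of the 3 lists along both clusters, in kb from the lower end of the first gene, with the genes shaded. Ring1b scores of 1674 and above stand on or near the genes with 1 exception between Irx5 and Irx6 (score 1779), while KAP1 peaks crowd the stretch between Irx3 and Irx5.

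The long intervals between the genes differed in KAP1. Between Irx3 and Irx5 (556 kb) lay 34 KAP1 peaks, or 61.1 per Mb, with scores from 50.9 to 380, and 28 of them were farther than 10 kb from either gene. Between Irx5 and Irx6 (313 kb) lay 2, or 6.39 per Mb. The intervals on chromosome 13 were also thinly filled, with 6 between Irx1 and Irx2 (661 kb, 9.08 per Mb) and 8 between Irx2 and Irx4 (625 kb, 12.8 per Mb). By this count the Irx3 to Irx5 interval was the only one of the 4 above the genome's 30.6 per Mb. Counted over all summits, Ring1b did not follow the same order: its densities were 10.8 per Mb between Irx3 and Irx5, 12.8 between Irx5 and Irx6, 3.03 between Irx1 and Irx2, and 4.80 between Irx2 and Irx4. These counts include peaks beside the genes. Farther than 10 kb from the genes lay 4 Ring1b peaks between Irx3 and Irx5 and 2 between Irx5 and Irx6. Between Irx1 and Irx2 there was 1, and between Irx2 and Irx4 there were 0.

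**Figure D5:**
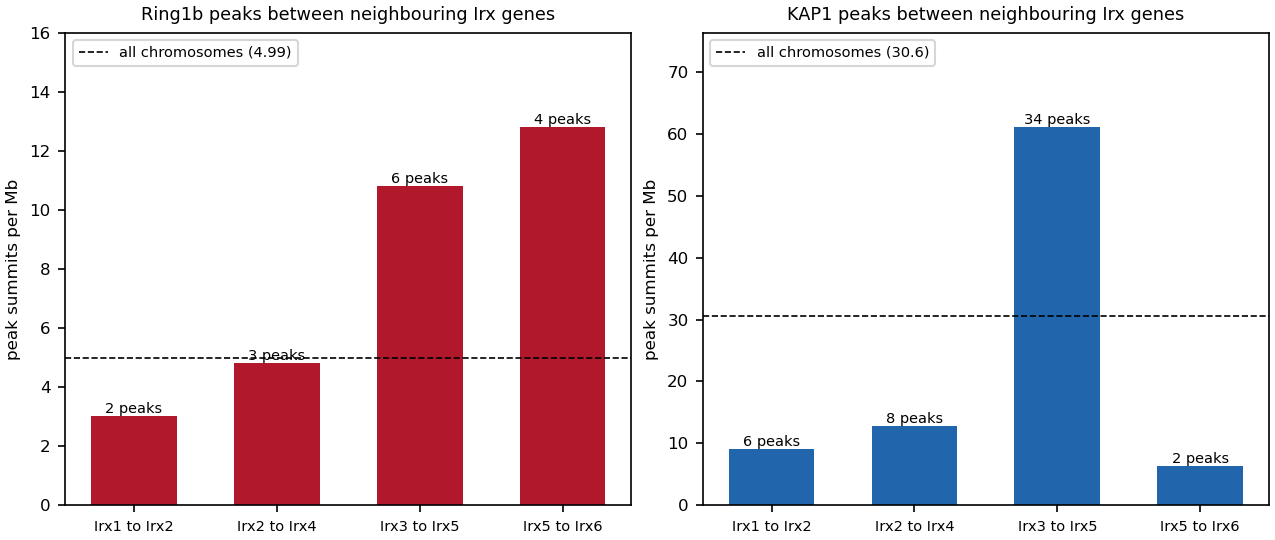
Peaks per Mb in the intervals between neighbouring Irx genes, counted by summit, with the number of peaks over each bar and the genome's density as a dashed line. KAP1 reaches 61.1 per Mb between Irx3 and Irx5 and stays under 13 in the other 3 intervals.

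Away from the genes, 6 of the 7 Ring1b peaks lay on a KAP1 peak, against 10 of the 17 near the genes and 76.6% of all Ring1b peaks. With 7 distal peaks no difference is read from these counts. Most of the distal pairs were narrow. Between Irx1 and Irx2, 329 kb from the Irx1 start, a Ring1b peak of 265 bp scoring 66.0 (72292547 to 72292811) lay within a KAP1 peak scoring 333, the highest KAP1 score in the chromosome 13 window, with summits 34 bp apart. Between Irx3 and Irx5, 121 kb from the Irx3 start, a Ring1b peak of 284 bp scoring 53.0 (91922172 to 91922455) lay within a KAP1 peak scoring 380, with summits 35 bp apart. The strongest KAP1 peak of each window was thus paired with a Ring1b peak close to the list minimum of 50.0. Another pair, 223 kb from the Irx3 start, had scores of 171 for Ring1b and 154 for KAP1, with summits 46 bp apart. A further 2 Ring1b peaks stood about 224 kb from the Irx5 start, scoring 52.6 and 66.6, over KAP1 peaks scoring 75.3 and 135.

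The peak 103 kb downstream of the Irx5 start was unlike these. It was 1732 bp wide (92460012 to 92461743) and scored 1779, above the main peak of Irx6, over a KAP1 peak of only 70.3. It overlapped no gene of the RefSeq table. The last distal Ring1b peak, 129 kb before the Irx6 start, scored 129 and had no KAP1 peak within 84996 bp. Over the 28 KAP1 peaks with Ring1b, the 6 distal ones had a median KAP1 score of 144 and the 22 near the genes one of 90.7. Over all 11363 KAP1 peaks with Ring1b the median was 139. The distal value was thus close to that of the list, and the value near the genes was the lower one.

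None of the 24 Ring1b peaks overlapped a peak of the knockout list, which allows a share of up to 12.5%, and over all Ring1b peaks 0.326% did. The windows held 7 knockout-list peaks, 4 on chromosome 13 (scores 51.0, 51.0, 60.1 and 62.7) and 3 on chromosome 8 (56.7, 69.7 and 103). They were narrow, 130 to 391 bp, and lay 10430 to 294841 bp from the nearest Ring1b peak of the vehicle list. The nearest to a member lay 18159 bp from the Irx1 start, and none was within 5 kb of the 6 genes, against 18.1% of all protein-coding genes with one and 3.19% of deposited promoters. With 6 genes a count of 0 cannot be told from a share of 18.1%, which also counts genes of every length. The density of knockout-list peaks, 2.65 per Mb on chromosome 13 and 2.77 on chromosome 8, was below the 3.30 of the genome and below that of those chromosomes (4.80 and 8.73). These densities rest on 4 and 3 peaks, so no depletion is read from them. None overlapped a KAP1 peak (0 of 7, which allows up to 42.9%), against 13.6% of the list, and read from the other side 0 of 72 KAP1 peaks overlapped one (up to 4.17%), against 1.42% of all. The effect of KAP1 deletion on Ring1b at these genes cannot be told apart here from differences of library depth, control and cell line, since both libraries of that call come from different lines.

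The TALE homeobox genes set beside them (Meis, Pbx, Pknox, Tgif and Mkx, cofactors and relatives of the Hox proteins) number 11. In the authors' deposited promoter tables, 5 of them were in the class with both proteins (Meis1, Meis2, Pbx3, Pknox2 and Mkx), 5 in that with KAP1 only (Pbx2, Pbx4, Pknox1, Tgif1 and Tgif2) and Meis3 in that with Ring1b only. So 6 of 11 had Ring1b, against 6 of 6 Irx genes and 28.7% of all. Meis1, Meis2, Pbx3 and Mkx had the tied Ring1b score of 3100 at their promoters, as Irx1 to Irx5 did. Pknox2 scored 2597 and Meis3 68.1. A Ring1b peak of 5 kb or wider stood within 5 kb of 2 of the 11, Meis1 (9106 bp) and Meis2 (9123 bp), and of 5 of the 6 Irx genes. The share of all genes with such a peak is not given here. Meis1 and Meis2 are far longer than any Irx gene, so more sequence was searched at them. KAP1 scores at the 5 TALE promoters with KAP1 but no Ring1b were 287 at Tgif1, 207 at Tgif2, 164 at Pknox1, 70.6 at Pbx2 and 52.2 at Pbx4, on both sides of the highest value at an Irx start, 179. No difference between the groups was tested.

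The windows held 2 protein-coding genes besides the Irx genes, Ndufs6, a subunit of mitochondrial complex I, and Mrpl36, a mitochondrial ribosomal protein, next to Irx4. Neither had a Ring1b peak within 5 kb. A KAP1 peak scoring 253 lay over both, above every KAP1 peak at an Irx start. Over all protein-coding genes, 39.3% had a Ring1b peak and 75.5% a KAP1 peak in the gene or within 5 kb. The Ring1b peaks near Irx4 thus did not reach these 2 neighbours, and no pattern is read from 2 genes.

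By covered length and highest score of the 3 lists within 5 kb of the gene (Euclidean distance over 6 log10 values, 21031 genes), the gene nearest to Irx1 was Foxb2 (0.0768), to Irx2 Meis1 (0.0548), to Irx4 Sox6 (0.0407), to Irx3 Nr4a3 (0.0834), to Irx5 Lbx1 (0.0684) and to Irx6 Erfl (0.100). Genes for transcription factors were among them, such as Foxb2, Meis1, Sox6, Nr4a3 and Lbx1. The share of such genes among the 21031 was not counted, so no enrichment is read from this. Each distance rests on the same 3 peak lists. No knockout-list peak lay within 5 kb of any member, and the Ring1b scores of Irx1 to Irx5 were at or above the tie at 3100. For these 5 genes the distances thus rest mostly on covered lengths and on the KAP1 score.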

How the data were processed

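The submitters' processing notes name MACS 1.4.2, Bowtie2, bedtools 2.16.2 and CASAVA 1.8.2, with mm10 (GRCm38). Fixation was 10 min in 1.2% formaldehyde, fragments were about 200 bp, and 5 µg of KAP1 or 3 µg of Ring1b antibody was used, per the labels' protocols. Per the file headers, the authors' deposited score equals −log10 p multiplied by 10. No source used here gives read depth, so precision at any peak is unknown. The authors also deposited 6 tables of promoters and whole genes. Members and lists were chosen with earlier results of these data known.

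Peaks were compared by overlap of at least 1 bp, over each cluster with 100 kb on each side, in Python 3.11.15 (numpy 2.4.6, pandas 2.3.3, scipy 1.17.1), with code tested on simulated data. Starts and names came from the tables' accessions and RefSeq GRCm38.p6. Of 13039 deposited promoter regions, 1496 (11.5%) carry accessions of several genes, and these were counted for each gene. The 10 kb limit between near and distal peaks was chosen after the peaks were seen. Where a share was 0, the limit was 3 counts of the total.

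Genes named were all Irx genes, protein-coding genes in the windows, the TALE list, and the nearest gene to each member by likeness. Alternatives were another flank, merged peaks, the upper 50% of scores, other overlap rules and other promoter definitions. A gene of the planned TALE list is not reported here, and counts are without it. Protein identity was not analysed here, and no group was tested.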

Additional observations from a re-analysis of the deposited data

How the results depend on the processing

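Of 50 values of 16 results under other settings, 38 stayed within 1.5 times the reported count (or, for a share, within its exact 95% interval) and 12 moved further; the cause was not tested beyond each setting's own construction. With rows taken by the symbol in column 1 only, 3 Irx promoters instead of 5 had both proteins, because Irx2 and Irx5 are filed under their noncoding partners. Irx promoters with Ring1b only numbered 0 with peaks allowed within 5 kb and 2 with peaks within 1 kb of the own start (chosen after seeing the data, as was the symbol rule), against 1. Irx whole genes with Ring1b only numbered 2 by overlap of the annotated gene, against 1. Merging peaks within 1 kb left 9 Ring1b peaks on chromosome 8, against 14. With the upper 50% of scores, 8 Ring1b peaks and 14 KAP1 peaks remained on chromosome 8 and 12 KAP1 and 2 knockout-list peaks on chromosome 13, against 14, 41, 31 and 4. With a 500 kb flank the chromosome 13 window held 57 KAP1 peaks. Asking that KAP1 cover at least 50% of the Ring1b peak left 25.0% of Ring1b peaks with KAP1, against 66.7%. TALE genes with Ring1b only numbered 0 in the authors' deposited whole-gene tables, against 1. No paired analysis was possible because each group has 1 library. Depth limits every absence: a peak that was not listed may lie under the list minimum of 50.0.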

Other observations

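Borders and scores of KAP1 regions in the authors' deposited tables did not always match the listed peaks. In the authors' deposited promoter table the KAP1 region of Irx4 scores 104, with its summit at 73259688, and the listed peak there scores 121, with its summit at 73259673. At Irx6 the authors' deposited promoter table gives 111, and both the list and the authors' deposited gene table give 126. At the joint promoter of Irx5 and Crnde the authors' deposited table gives 121 and the list 170, and at that of Irx2 and Gm20554 they give 184 and 179. The Ring1b scores at these promoters were the same in table and list, to a whole number.

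Whole-gene regions in the authors' deposited tables reach 1 kb past the lower coordinate on both strands. This held for 1631 of 1650 genes whose promoter is at the lower end and for 1221 of 1439 genes whose promoter is at the upper end. For Irx1 and Irx3, which are read from the upper end, the region therefore includes 1 kb past the 3′ end and stops at the start. The whole-gene class of Irx6 rests on the extension, since its KAP1 peak ends before the annotated gene begins. By overlap of the annotated gene Irx6 has Ring1b only.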
